A study of Mus musculus with 17 samples.

Results

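The genes described here carry glucose from the cell surface to acetyl-CoA. They are 37 named genes for glucose uptake, glycolysis, lactate handling and pyruvate entry into mitochondria, taken by name from a count table of 56748 genes. The 37 names matched 38 table entries, since *Aldoa* has a second entry with its own identifier, and 36 entries, each of a different name, passed the filter on low counts. The rule takes genes by their function in the pathway and uses no measured value, although the list was written with earlier results of these data known.

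RNA was sequenced from hearts of mice aged 12 to 16 months, 9 of them *Polg*hMut mice (hMut) and 8 controls (Ctrl), with 1 library per mouse. hMut mice have the genotype *Polg* iMut/iMut; +/Ckmm-cre on a C57BL/6N background. The iMut allele makes normal mtDNA polymerase until Cre removes a floxed cassette, after which it makes the proofreading-deficient POLG D257A. Ckmm-cre, driven by the muscle creatine kinase promoter, acts in striated muscle, so other cardiac cell types keep the unrecombined allele wherever Cre is not active. For Ctrl mice the labels give a control genotype without naming alleles, and no treatment was applied to either group. The RNA came from heart tissue, and the chambers it held are not given in the sources used here.

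The adult heart draws most of its ATP from fatty acids and uses glucose and lactate as flexible additional fuels. Many glycolytic steps have a muscle isozyme and another isozyme that is used by most other tissues, by the fetal heart or by proliferating cells. At the end of the pathway pyruvate is either reduced to lactate or carried into mitochondria, where the pyruvate dehydrogenase complex converts it to acetyl-CoA. Kinases (PDK) switch that complex off by phosphorylation and phosphatases (PDP) switch it on again.

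Total counts per library lay between 32915159 and 46486964, and mtDNA-encoded genes took 23.5 to 30.9% of them in Ctrl and 15.9 to 23.0% in hMut hearts. The RNA level of the targeted gene *Polg* was 34.7 ± 7.31 CPM (SD, n = 8) in Ctrl and 57.9 ± 6.08 CPM (SD, n = 9) in hMut hearts. CPM is the count normalized to library size with TMM, the method of edgeR that takes the bulk of genes as unchanged. Heart muscle identity was clear in every library: the 15 cardiomyocyte markers summed to between 65311 and 79203 CPM in Ctrl and between 48439 and 77578 CPM in hMut hearts. The lowest Ctrl sum was that of Ctrl replicate 3, and the other Ctrl hearts lay between 75545 and 79203 CPM. All hMut hearts but replicate 2 lay below these, at 68749 CPM or less. Of the 15 markers 0 passed the edgeR test (10 were lower at an unadjusted p under 0.05). All 15 log2 fold changes were negative, with a median of -0.24. In such bulk tissue fewer cells of a type and less RNA per cell cannot be told apart. Several libraries stood apart. hMut replicates 6 and 9 had the lowest sums of cardiomyocyte markers, at 51423 and 48439 CPM, and the highest sums of 12 macrophage and monocyte markers, at 1475 and 760 CPM against 284 to 426 CPM in Ctrl hearts. hMut replicate 6 also held 89.8 CPM of 11 lymphocyte markers, and Ctrl replicate 3, at 52.4 CPM, the most among Ctrl hearts. Values without hMut replicates 6 and 9 are given for those of the pathway's named genes that were called, and for other results where leaving them out ended a call.

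Across the 36 measured genes, 3 were higher and 0 were lower in hMut than in Ctrl hearts. Genes were tested by quasi-likelihood in edgeR, and p-values were adjusted over 16195 genes by Benjamini-Hochberg, with a threshold of 0.05. Among all genes tested, 3.48% were called higher (564 genes) and 1.14% lower (185 genes). The 3 genes were *Slc2a1*, *Pfkp* and *Pgam1*. Their count is 8.33% of 36, and no test was made of that share. At an unadjusted p under 0.05, 10 of the 36 genes were higher and 9 lower, beside 2347 and 1831 of all 16195 genes. The median log2 fold change of the pathway was -0.03, against 0.00 for all genes, and 27 of 36 genes lay within 0.3 of 0 on the log2 scale, as did 79.3% of all genes. Of the 36 log2 fold changes 16 were positive and 20 negative, and isozymes of the same step were often on opposite sides of 0. DESeq2 called 7 of the genes higher and 1 lower, beside 6.78% and 3.43% of all genes it tested. limma-voom with quality weights called 5 higher and 6 lower, beside 7.26% and 5.59% of all genes. *Slc2a1*, *Pfkp* and *Pgam1* were among the genes called higher by both.

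These calls depend on what is taken as unchanged. With libraries scaled on the cardiomyocyte markers in place of TMM, the median of all genes moved up by 0.27 on the log2 scale, the calls over all genes went from 564 higher and 185 lower to 7535 higher and 84 lower, and 19 of the 36 pathway genes were called higher, beside 46.5% of all genes. *Slc2a1*, *Pfkp* and *Pgam1* were among these 19, at log2 fold changes of 1.14, 1.22 and 0.89. The median of the pathway moved from -0.03 to 0.26, and 15 of the 20 negative log2 fold changes turned positive, so that only *Slc2a4*, *Pfkfb1*, *Eno3*, *Ldhb* and *Pdp2* were below 0 under both scalings. Comparisons between isozymes within a heart do not depend on the scaling and are given after the single steps.

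**Figure D1:**
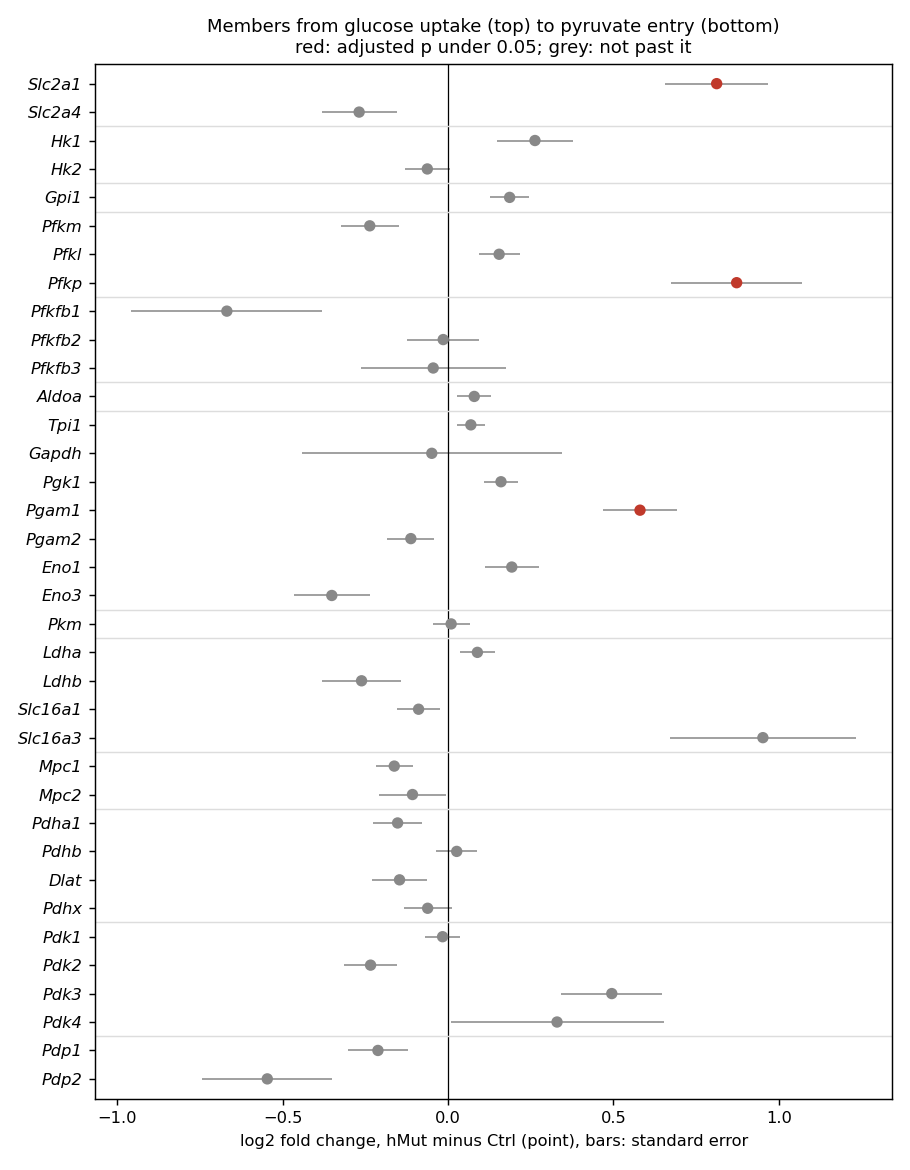
Log2 fold change (hMut minus Ctrl, x axis) of the 36 measured genes in pathway order, with bars for the standard error. The 3 red points are the genes called higher, *Slc2a1*, *Pfkp* and *Pgam1*, and grey points did not pass the test.

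Glucose enters the cardiomyocyte mainly through GLUT4, the insulin-regulated transporter encoded by *Slc2a4*, and through GLUT1, the constitutive transporter encoded by *Slc2a1*. *Slc2a1* (ENSMUSG00000028645, chromosome 4, 118965908 to 118995180 in GRCm39) had between 13.0 and 20.5 CPM in Ctrl hearts (median 15.2) and between 16.3 and 39.4 CPM in hMut hearts (median 27.6). Only hMut replicates 2 and 8 lay within the Ctrl range, and the other 7 exceeded it. The log2 fold change of *Slc2a1* was 0.81 (standard error, SE, 0.16, adjusted p = 0.00604, edgeR). Without hMut replicates 6 and 9 it was 0.67 (adjusted p = 0.0132, edgeR).

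*Slc2a4* was between 356 and 492.96 CPM in Ctrl hearts (median 435) and between 210 and 454 CPM in hMut hearts (median 369). The groups overlapped, with only hMut replicates 6 and 9 below every Ctrl heart, and the log2 fold change of -0.27 (SE 0.11) did not pass the test (adjusted p = 0.150, edgeR). Per kilobase of gene model, *Slc2a1* made up 3.50 ± 0.331% (SD, n = 8) of the summed level of both transporters in Ctrl and 7.61 ± 3.48% (SD, n = 9) in hMut hearts. Shares were also taken per kilobase of the canonical transcript that Ensembl marks for each gene, a length chosen after the data were seen. On that length the *Slc2a1* shares were 2.10% and 4.68%, so that *Slc2a4* supplied most of the pair on either length.

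Hexokinase traps glucose as glucose 6-phosphate. *Hk2*, the isozyme typical of insulin-sensitive muscle, stood at 366 ± 30.8 CPM (SD, n = 8) in Ctrl and 350 ± 38.1 CPM (SD, n = 9) in hMut hearts, a log2 fold change of -0.06 (SE 0.07, adjusted p = 0.571, edgeR). *Hk1*, the widely expressed isozyme that binds to mitochondria, was between 151 and 228 CPM in Ctrl hearts (median 187) and between 162 and 327 CPM in hMut hearts (median 221). hMut replicates 4, 6 and 9 exceeded every Ctrl heart, while the rest overlapped, and the log2 fold change of 0.26 had an adjusted p of 0.164 (edgeR). Phosphoglucose isomerase, which makes fructose 6-phosphate, has a single gene, *Gpi1*. It was between 438 and 511 CPM in Ctrl and between 473 and 645 CPM in hMut hearts, with 6 of 9 hMut hearts above every Ctrl heart and a log2 fold change of 0.19 (SE 0.06, adjusted p = 0.0708, edgeR).

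Phosphofructokinase-1 commits sugar phosphate to glycolysis, and its subunits come from a muscle (*Pfkm*), a liver (*Pfkl*) and a platelet (*Pfkp*) gene. *Pfkp* (ENSMUSG00000021196, chromosome 13, 6629804 to 6698813) had between 45.8 and 65.8 CPM in Ctrl hearts (median 51.6) and between 58.8 and 204 CPM in hMut hearts (median 89.6). All hMut hearts but replicate 2 lay above every Ctrl heart, and replicates 6 (204 CPM) and 9 (130 CPM) lay furthest from them. The log2 fold change was 0.87 (SE 0.20, adjusted p = 0.0174, edgeR). Without hMut replicates 6 and 9 it fell to 0.55 and still passed the test (adjusted p = 0.00388, edgeR). Among the 3 genes called higher, *Pfkp* alone lost its call when the replicate number of the labels was added as a block (adjusted p = 0.0993, edgeR). These numbers count different mice, and hMut replicate 9 has no Ctrl heart of its number, so the block takes it out of the comparison. Over all genes, calls went from 564 higher and 185 lower to 169 and 26 with the block.

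*Pfkm* was between 968 and 1260 CPM in Ctrl hearts and between 715 and 1175 CPM in hMut hearts. The highest hMut heart, replicate 2, was inside the Ctrl range, and 3 of 9 hMut hearts were below every Ctrl heart. The log2 fold change of *Pfkm* was -0.24 (SE 0.09, adjusted p = 0.114, edgeR). *Pfkl* was at 145 ± 15.4 CPM (SD, n = 8) in Ctrl and at 161 ± 11.5 CPM (SD, n = 9) in hMut hearts, with a log2 fold change of 0.15 (adjusted p = 0.134, edgeR). Per kilobase of gene model, *Pfkm* supplied 93.1 ± 0.526% of the phosphofructokinase transcripts in Ctrl and 90.04 ± 2.27% in hMut hearts, and *Pfkp* 1.08 ± 0.164% and 2.41 ± 1.52% (SD, n = 8 and 9). The *Pfkp* gene model of 13401 bases is far longer than its canonical transcript of 4308 bases. On transcript lengths the *Pfkp* share was 3.71 ± 0.546% and 7.74 ± 4.40%, and the *Pfkm* share 85.8 ± 1.003% and 79.4 ± 5.10% (SD, n = 8 and 9).

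Phosphofructokinase-2 makes and removes fructose 2,6-bisphosphate, the strongest activator of phosphofructokinase-1. None of its 3 genes passed the test. *Pfkfb1*, the liver and skeletal muscle form, was between 11.6 and 26.0 CPM in Ctrl hearts (median 16.8) and between 3.25 and 20.3 CPM in hMut hearts (median 11.0). Here 6 of 9 hMut hearts lay below every Ctrl heart, with replicates 6 and 9 lowest at 3.25 and 4.10 CPM, and the log2 fold change was -0.67 (SE 0.29, adjusted p = 0.158, edgeR). *Pfkfb2*, the cardiac form, stood at 47.3 ± 8.29 CPM (SD, n = 8) and 46.8 ± 7.11 CPM (SD, n = 9). *Pfkfb3*, the inducible form, had 29.2 CPM in hMut replicate 6, while the other 8 hMut hearts, at 8.40 to 13.9 CPM, lay within or below the Ctrl range of 9.35 to 16.3 CPM.

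**Figure D2:**
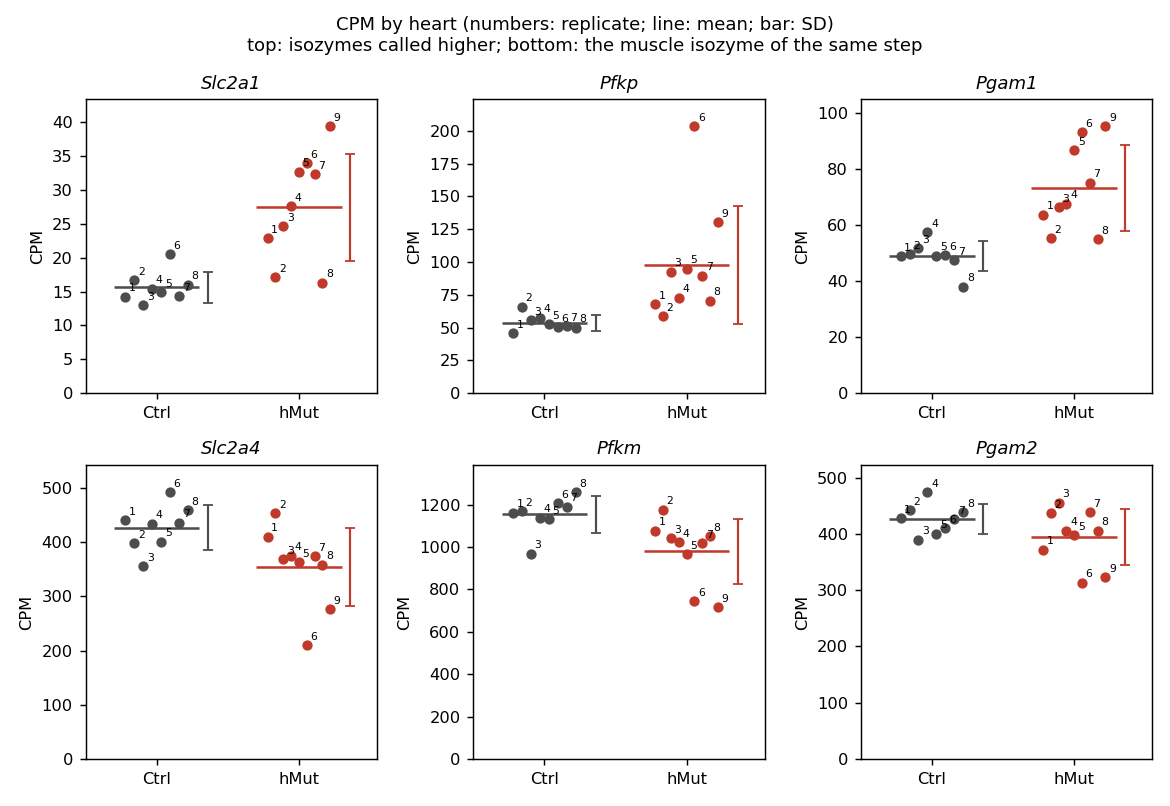
CPM (y axis, from 0) in each of 8 Ctrl and 9 hMut hearts for *Slc2a1*, *Pfkp* and *Pgam1* (top) and for the muscle isozyme of the same step, *Slc2a4*, *Pfkm* and *Pgam2* (bottom), with lines for means and bars for the SD. In the top panels 7, 8 and 7 of 9 hMut hearts lie above every Ctrl heart, and in the bottom panels hMut replicates 6 and 9 are lowest.

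Aldolase splits the 6-carbon sugar. *Aldoa*, the muscle isozyme, was at 2028 ± 123 CPM (SD, n = 8) in Ctrl and 2142 ± 114 CPM (SD, n = 9) in hMut hearts, with a log2 fold change of 0.08 (SE 0.05, adjusted p = 0.320, edgeR). Its second table entry, an adjoining gene model on chromosome 7, held at most 0.426 CPM. *Aldoc*, the brain isozyme, held at most 0.805 CPM in any heart, so that neither was tested.

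The middle of the pathway runs from triose phosphate to phosphoenolpyruvate. *Tpi1* (triose phosphate isomerase) was at 690 ± 34.2 CPM (SD, n = 8) in Ctrl and 724 ± 35.2 CPM (SD, n = 9) in hMut hearts, a log2 fold change of 0.07. *Pgk1* (phosphoglycerate kinase, the first ATP-yielding step) was between 363 and 447 CPM in Ctrl and between 422 and 522 CPM in hMut hearts. For *Pgk1*, 6 of 9 hMut hearts lay above every Ctrl heart, and the log2 fold change was 0.16 (SE 0.05, adjusted p = 0.0739, edgeR). Exact copies elsewhere in GRCm39 were found for 89.8% of the windows of 100 bases along the canonical *Pgk1* transcript, so its level is uncertain.

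*Gapdh* (glyceraldehyde 3-phosphate dehydrogenase) is often used as a reference gene. It had 7123 to 12251 counts in 7 Ctrl libraries and 4826 to 12980 counts in the hMut libraries, but only 251 counts (7.96 CPM) in Ctrl replicate 3. The other Ctrl hearts averaged 35.1 times the level of that library. The log2 fold change of *Gapdh* was -0.05 with an SE of 0.39, and -0.24 (adjusted p = 0.360, edgeR) without Ctrl replicate 3. Exact copies elsewhere in GRCm39 were found for 85.1% of the windows of 100 bases along the canonical *Gapdh* transcript, with up to 40 copies. Reads from *Gapdh* can therefore map to more than 1 place, and the counts are uncertain. The part of these copies in the low value was not tested.

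Phosphoglycerate mutase has a brain-type (*Pgam1*) and a muscle-type (*Pgam2*) gene. *Pgam1* (ENSMUSG00000011752, chromosome 19, 41900362 to 41907099) had between 38.0 and 57.5 CPM in Ctrl hearts (median 49.3) and between 55.1 and 95.4 CPM in hMut hearts (median 67.7). As with *Slc2a1*, only hMut replicates 2 and 8 fell within the Ctrl range. The log2 fold change was 0.58 (SE 0.11, adjusted p = 0.00607, edgeR), and 0.46 without hMut replicates 6 and 9 (adjusted p = 0.0104, edgeR). Copies elsewhere covered 88.8% of the *Pgam1* windows, so its level is uncertain. The annotated copy *Pgam1-ps2* on chromosome 7 had 19 to 31 counts in Ctrl and 29 to 54 in hMut libraries, which differed in the same direction (log2 fold change 0.73, adjusted p = 0.0315, edgeR). Whether these are reads of *Pgam1* placed at the copy cannot be told apart from these counts. No exact window of this length was shared elsewhere by *Slc2a1* or *Pfkp*. *Pgam2* was at 426 ± 26.7 CPM (SD, n = 8) in Ctrl and 394 ± 49.9 CPM (SD, n = 9) in hMut hearts, a log2 fold change of -0.11 that did not pass the test (adjusted p = 0.314, edgeR) and that turned to 0.15 with the cardiomyocyte scaling.

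To show the regulatory sequence next to the 3 genes called higher, the 250 bases before their start sites are printed (RefSeq, GRCm38.p6, a build older than that of the counts). *Ldha*, which did not pass the test, is added because its first listed promoter held the most matches among the pathway's promoters. Capitals mark matches to ACGTG, the core of the hypoxia response element, on either strand, and to the E-box CACGTG, which contains that core on both strands.
Slc2a1, chr4:119108495-119108744, plus strand: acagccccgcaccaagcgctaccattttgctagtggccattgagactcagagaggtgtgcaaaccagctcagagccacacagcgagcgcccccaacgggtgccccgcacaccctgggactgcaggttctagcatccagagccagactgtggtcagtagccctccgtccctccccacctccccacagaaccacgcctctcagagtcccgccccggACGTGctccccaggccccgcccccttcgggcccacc
Pfkp, chr13:6648772-6649021, minus strand: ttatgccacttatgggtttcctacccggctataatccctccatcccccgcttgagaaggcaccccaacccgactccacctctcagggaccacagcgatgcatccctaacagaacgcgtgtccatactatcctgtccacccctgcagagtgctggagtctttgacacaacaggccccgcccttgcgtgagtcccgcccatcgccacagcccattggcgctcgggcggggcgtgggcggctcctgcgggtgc
Pgam1, chr19:41911621-41911870, plus strand: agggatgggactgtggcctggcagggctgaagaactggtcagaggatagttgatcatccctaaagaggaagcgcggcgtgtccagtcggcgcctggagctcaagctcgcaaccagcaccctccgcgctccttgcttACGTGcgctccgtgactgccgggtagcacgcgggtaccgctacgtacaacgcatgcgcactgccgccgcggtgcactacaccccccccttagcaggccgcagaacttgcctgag
Ldha, chr7:46845554-46845803, plus strand: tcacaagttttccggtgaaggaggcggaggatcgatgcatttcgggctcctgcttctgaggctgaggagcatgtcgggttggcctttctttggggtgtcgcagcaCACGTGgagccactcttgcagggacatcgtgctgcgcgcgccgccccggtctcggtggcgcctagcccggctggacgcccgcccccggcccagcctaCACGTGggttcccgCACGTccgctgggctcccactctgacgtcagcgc

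*Slc2a1* and *Pgam1* held 1 match to ACGTG each, *Pfkp* none, and *Ldha* 5 matches, 4 of them within its 2 E-boxes. The other form of the core, GCGTG, was not searched, and it occurs in the printed *Pfkp* promoter. ACGTG was present in 16.6% of 32851 promoters of this length and in 20 of the 55 promoters listed for 35 of the pathway's genes (36.4%), and the E-box in 6.02% and in 7 of 55. TGATGNAA, the core of the element bound by ATF4 with C/EBP factors, was present in 3.45% of all promoters and in 0 of the 55. The printed promoters were 62.8 to 67.2% G and C, against a median of 52.4% over all promoters. Matches are letters in a window and were not tested as binding sites, and the promoter with most matches belonged to a gene with a log2 fold change of 0.09.

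Enolase, too, has a ubiquitous (*Eno1*) and a muscle (*Eno3*) gene. *Eno3* was between 964 and 1230 CPM in Ctrl hearts (median 1139) and between 575 and 1142 CPM in hMut hearts (median 896), with 5 of 9 hMut hearts below every Ctrl heart. Its log2 fold change of -0.35 (SE 0.11) had an adjusted p of 0.0786 with edgeR, and it was the only gene of the pathway that DESeq2 called lower. *Eno1* was at 137 ± 9.82 CPM (SD, n = 8) and 157 ± 25.1 CPM (SD, n = 9), a log2 fold change of 0.19 (adjusted p = 0.151, edgeR). Copies elsewhere covered 51.9% of the *Eno1* windows. Pyruvate kinase closes glycolysis. *Pkm* stood at 1264 ± 93.1 CPM (SD, n = 8) in Ctrl and 1272 ± 85.1 CPM (SD, n = 9) in hMut hearts (log2 fold change 0.01, SE 0.06). The counts are per gene and do not separate the M1 and M2 splice forms of *Pkm*.

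Lactate dehydrogenase interconverts pyruvate and lactate, and its H subunit (*Ldhb*) predominates in heart while its M subunit (*Ldha*) predominates in fast muscle. *Ldhb* was between 1115 and 1509 CPM in Ctrl hearts (median 1379) and between 698 and 1514 CPM in hMut hearts (median 1189). hMut replicates 6 and 9 were lowest and replicate 2 was the highest heart of all, and the log2 fold change was -0.26 (SE 0.12, adjusted p = 0.176, edgeR). *Ldha* was at 596 ± 43.1 CPM (SD, n = 8) and 633 ± 42.8 CPM (SD, n = 9), a log2 fold change of 0.09. Lactate crosses the cell membrane through MCT1 (*Slc16a1*) and MCT4 (*Slc16a3*), the latter typical of lactate-exporting cells. *Slc16a1* was at 295 ± 30.2 CPM (SD, n = 8) and 277 ± 23.8 CPM (SD, n = 9). *Slc16a3* was scarce, between 1.59 and 2.65 CPM in Ctrl hearts (median 2.45) and between 1.95 and 9.83 CPM in hMut hearts (median 3.89). It had the highest log2 fold change of the pathway, 0.95 (SE 0.28), and 7 of 9 hMut hearts lay above every Ctrl heart, but the adjusted p was 0.0592 (edgeR). Without hMut replicates 6 and 9 the log2 fold change of *Slc16a3* was 0.53 (adjusted p = 0.163, edgeR).

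Pyruvate is carried into mitochondria by a heterodimer of MPC1 and MPC2. *Mpc1* was between 68.0 and 86.5 CPM in Ctrl and between 58.0 and 75.8 CPM in hMut hearts. Here 5 of 9 hMut hearts lay below every Ctrl heart, and the log2 fold change was -0.16 (SE 0.06, adjusted p = 0.0925, edgeR). Copies elsewhere covered 63.8% of the *Mpc1* windows. *Mpc2* was at 304 ± 16.3 CPM (SD, n = 8) and 282 ± 54.0 CPM (SD, n = 9), with hMut replicates 6 and 9 lowest at 180 and 215 CPM.

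Genes of the pyruvate dehydrogenase complex itself did not pass the test. *Pdha1* and *Pdhb* encode the subunits of the E1 component, *Dlat* the E2 acetyltransferase and *Pdhx* the protein that holds the E3 enzyme in the complex. *Pdha1* was at 1045 ± 60.3 CPM (SD, n = 8) in Ctrl and 940 ± 120 CPM (SD, n = 9) in hMut hearts (log2 fold change -0.15, adjusted p = 0.197, edgeR), whereas *Pdhb* was at 637 ± 37.6 CPM and 649 ± 65.4 CPM (log2 fold change 0.03). *Dlat* and *Pdhx* had log2 fold changes of -0.15 and -0.06 (adjusted p = 0.266 and 0.604, edgeR). In hMut replicate 6 all 4 were below every Ctrl heart. Their levels there were 724 CPM for *Pdha1*, 518 for *Pdhb*, 385 for *Dlat* and 118 for *Pdhx*.

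None of the 4 kinase genes passed the test. *Pdk2*, the widely expressed kinase, was between 354 and 423 CPM in Ctrl hearts (median 388) and between 230 and 371 CPM in hMut hearts (median 351). For *Pdk2*, 6 of 9 hMut hearts lay below every Ctrl heart, and the log2 fold change was -0.23 (SE 0.08, adjusted p = 0.0915, edgeR). *Pdk1*, a hypoxia-inducible kinase, was at 269 ± 21.1 CPM (SD, n = 8) and 266 ± 18.1 CPM (SD, n = 9), a log2 fold change of -0.02 (SE 0.05). *Pdk3* was near the bottom of the measured range, between 1.57 and 2.15 CPM in Ctrl and between 1.82 and 4.05 CPM in hMut hearts, with 6 of 9 hMut hearts above every Ctrl heart and a log2 fold change of 0.50 (SE 0.15, adjusted p = 0.0681, edgeR).

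*Pdk4*, the kinase that rises with fasting and fatty acids, had the highest coefficient of variation among Ctrl hearts of the genes tested in the pathway, at 60.0%. Its Ctrl level ran from 106 to 983 CPM (median 407), a range of 9.32 times, and its hMut level from 220 to 896 CPM (median 513), so every hMut heart lay within the Ctrl range. The log2 fold change of *Pdk4* was 0.33 with an SE of 0.32 (adjusted p = 0.526, edgeR). At this spread, a difference as large as that of *Pgam1* (0.58) would be under 2 SE for *Pdk4*.

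The phosphatase genes were both lower on average without passing the test. *Pdp2*, the insulin-responsive form, was between 38.2 and 55.3 CPM in Ctrl hearts (median 49.5) and between 12.9 and 53.2 CPM in hMut hearts (median 36.6). Here 6 of 9 hMut hearts lay below every Ctrl heart, replicates 6 and 9 furthest at 12.9 and 18.1 CPM, and the log2 fold change was -0.55 (SE 0.20, adjusted p = 0.105, edgeR). *Pdp1*, the calcium-activated form, was at 61.4 ± 8.16 CPM (SD, n = 8) and 53.0 ± 7.26 CPM (SD, n = 9), a log2 fold change of -0.21 (adjusted p = 0.157, edgeR).

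**Figure D3:**
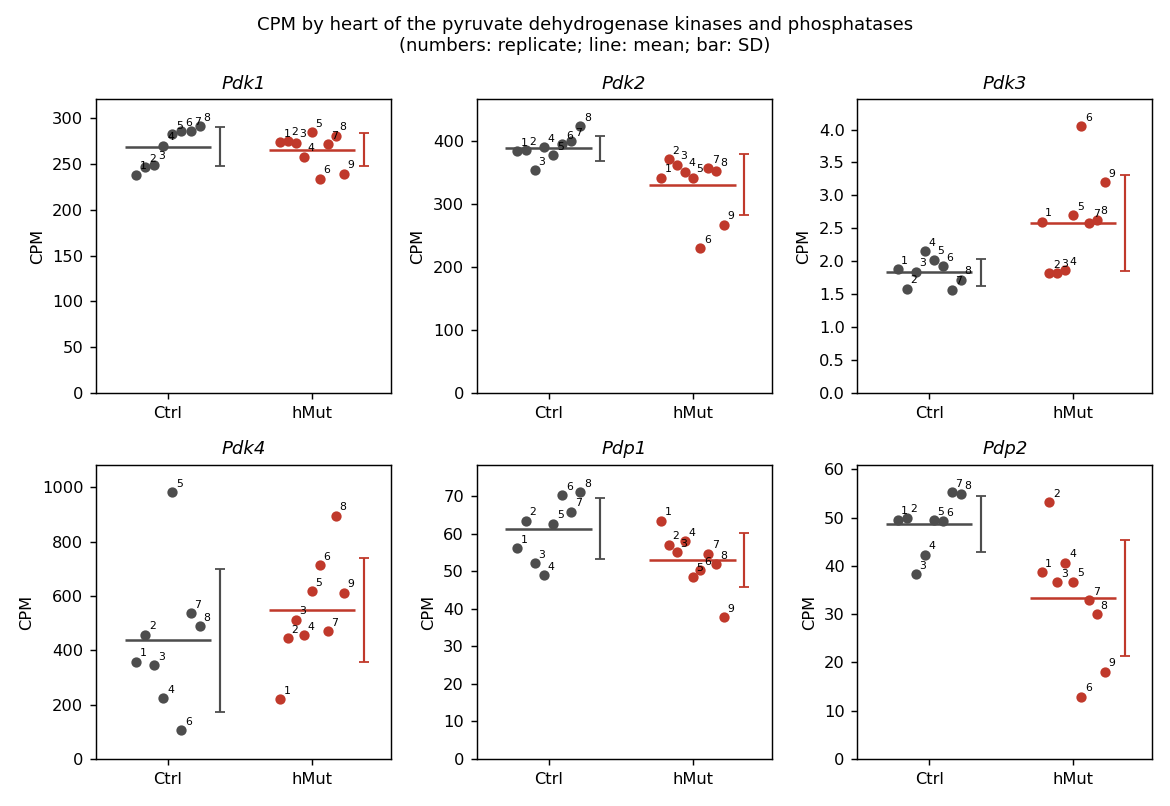
CPM (y axis, from 0) in each heart for the pyruvate dehydrogenase kinases *Pdk1* to *Pdk4* and phosphatases *Pdp1* and *Pdp2*, with lines for means and bars for the SD. *Pdk4* spans 106 to 983 CPM among Ctrl hearts, and *Pdp2* is lowest in hMut replicates 6 and 9.

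Genes of the same step were then compared within each heart, as 15 pairs of isozymes or isoforms and 2 pairs of partner subunits (*Pdha1*/*Pdhb* and *Mpc1*/*Mpc2*). For these 17 pairs the log2 ratio of the CPM values was taken in every heart. Group means were compared by exact permutation (two-sided, 24310 assignments of hearts to groups), adjusted over the 17 pairs by Benjamini-Hochberg. A ratio within a heart is not changed by the scaling of its library, but it says nothing about which of both genes moved. At an adjusted p under 0.05, 9 of the 17 ratios differed, 7 toward the first-named gene and 2 away from it. Some pairs share a gene (*Pfkm*, *Pfkfb2* and *Pdk4* are denominators of several), so the 9 are not independent of each other. The pairs were also chosen with earlier results of these data known. Ratios of other gene pairs were not taken, so the count of 9 has no background share beside it.

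In 5 of the 7 ratios that were higher, the widely expressed or non-muscle isozyme was higher relative to the muscle isozyme (*Slc2a1*, *Pfkp*, *Pfkl*, *Pgam1* and *Eno1*), and the other two concern lactate. The *Slc2a1*/*Slc2a4* log2 ratio was -4.77 ± 0.139 (SD, n = 8) in Ctrl and -3.72 ± 0.699 (SD, n = 9) in hMut hearts, a difference of 1.06 (exact permutation p = 0.000658, adjusted p = 0.00297). *Pfkp*/*Pfkm* differed by 1.02 (exact permutation p = 0.000699, adjusted p = 0.00297) and *Pgam1*/*Pgam2* by 0.68 (exact permutation p = 0.000411, adjusted p = 0.00297). In each of these pairs, 8 of 9 hMut hearts lay above every Ctrl heart. *Pfkl*/*Pfkm* differed by only 0.41, but its hearts varied little and 8 of 9 hMut hearts again lay above every Ctrl heart (exact permutation p = 0.000206, adjusted p = 0.00297).

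*Eno1*/*Eno3* differed by 0.56 (exact permutation p = 0.00366, adjusted p = 0.0124), with Ctrl hearts tightly grouped at -3.05 ± 0.0740 (SD, n = 8). In hMut replicate 2 this ratio was just below the lowest Ctrl heart (both -3.16), and in the other 8 hMut hearts above every Ctrl heart. *Ldha*/*Ldhb* differed by 0.38 (exact permutation p = 0.00568, adjusted p = 0.0138) and *Slc16a3*/*Slc16a1* by 0.85 (exact permutation p = 0.0153, adjusted p = 0.0289), each with 7 of 9 hMut hearts above every Ctrl heart. Both ratios that were lower belong to the pyruvate dehydrogenase system. *Pdha1*/*Pdhb*, the ratio of partner subunits, differed by -0.18 (exact permutation p = 0.00510, adjusted p = 0.0138), with 5 of 9 hMut hearts below every Ctrl heart, and *Pdp2*/*Pdp1* by -0.43 (exact permutation p = 0.0149, adjusted p = 0.0289), with 7 of 9 hMut hearts below and 1 above every Ctrl heart for the phosphatases.

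The other 8 ratios did not pass the test. *Hk1*/*Hk2* came nearest, with a difference of 0.31 (exact permutation p = 0.0467, adjusted p = 0.0794). The ratios of *Pdk1*, *Pdk2* and *Pdk3* to *Pdk4* differed by -0.50, -0.73 and -0.04 and were as wide as *Pdk4* itself, with Ctrl SDs of 0.958, 0.959 and 1.01. *Mpc1*/*Mpc2* differed by -0.03 and *Aldoc*/*Aldoa* by 0.18. *Pfkfb1*/*Pfkfb2* and *Pfkfb3*/*Pfkfb2* differed by -0.80 and -0.12. Without hMut replicates 6 and 9, 7 ratios passed: *Slc16a3*/*Slc16a1* (0.52, adjusted p = 0.102 by the exact permutation test) and *Pdp2*/*Pdp1* (-0.22, adjusted p = 0.0925 by the exact permutation test) no longer did. The differences of *Pfkp*/*Pfkm* (0.67), *Eno1*/*Eno3* (0.32) and *Ldha*/*Ldhb* (0.23) were then also smaller by over 1.5 times.

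**Figure D4:**
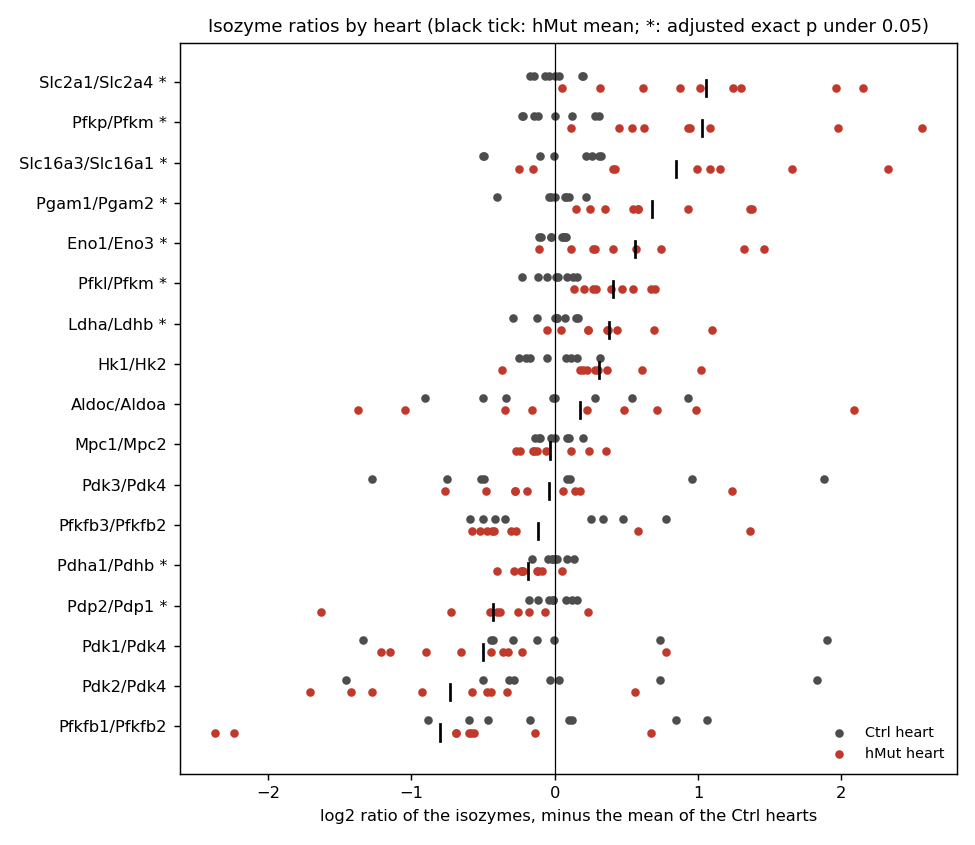
Log2 ratio of 17 pairs of isozymes or subunits in each heart (x axis, minus the mean of the Ctrl hearts), ordered by the difference between groups, with a black tick for the hMut mean and an asterisk for an adjusted exact permutation p under 0.05. The 7 ratios at the top with an asterisk are higher in hMut hearts, and *Pdha1*/*Pdhb* and *Pdp2*/*Pdp1* are lower.

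Shares per length depend on the length used, and are given first per kilobase of gene model. *Eno1* made up 3.76 ± 0.184% of enolase transcripts in Ctrl and 5.74 ± 2.16% in hMut hearts, *Pgam1* 4.66 ± 0.522% and 7.48 ± 2.30% of phosphoglycerate mutase, and *Ldha* 17.3 ± 1.44% and 21.6 ± 4.26% of lactate dehydrogenase (SD, n = 8 and 9). On the canonical transcript of each gene the shares were 8.41 ± 0.392% and 12.4 ± 4.27% for *Eno1* and 5.28 ± 0.589% and 8.45 ± 2.57% for *Pgam1*. For *Ldha* they were 29.8 ± 2.13% and 35.7 ± 5.59%, so *Eno3*, *Pgam2* and *Ldhb* held the larger share on either length. For hexokinase the order depended on the length. *Hk1* made up 26.4% in Ctrl and 31.0% in hMut hearts per kilobase of gene model, and 48.2% and 53.6% per kilobase of canonical transcript. Per kilobase of gene model, the summed level of both enolases was 678 ± 50.5 CPM per kilobase in Ctrl and 541 ± 107 in hMut hearts, that of both lactate dehydrogenases 1041 ± 77.0 and 910 ± 161, and that of both hexokinases 83.3 ± 6.63 and 85.1 ± 7.15 (SD, n = 8 and 9). Of the kinase transcripts, on the same length, *Pdk2* made up 45.9% in Ctrl and 36.3% in hMut hearts, *Pdk4* 41.0 ± 14.3% and 51.5 ± 11.0% (SD, n = 8 and 9), *Pdk1* 12.9% and 11.8%, and *Pdk3* 0.270% and 0.348%. On the canonical transcripts *Pdk2* held 51.8% and 42.7% and *Pdk4* 32.3% and 42.0%. These shares and sums are descriptions and were not tested.

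The hMut hearts were far from uniform. Over the 9 ratios that passed, which were selected on these same hearts, hMut replicates 6, 7 and 9 lay beyond every Ctrl heart in the direction of the group difference for all 9, replicates 3, 4, 5 and 8 for 8, replicate 1 for 7 and replicate 2 for 0. Each Ctrl heart, set against the other 7 in the same way, exceeded them for 0 to 2 ratios. Gene by gene, hMut replicate 6 had 11 genes above and 17 below every Ctrl heart out of 36, and hMut replicate 2 had 6 and 0. Across all genes, replicate 6 had 31.1% above and 28.8% below every Ctrl heart, and replicate 2 had 10.9% and 10.4%. Among the 36 genes, 26 had a wider spread (SD of log2 CPM) in hMut than in Ctrl hearts, which is 72.2% against 68.1% of all genes. Ctrl replicate 3 was the lowest Ctrl heart for 22 of the 36 genes, among them *Pfkm*, *Pkm*, *Aldoa*, *Tpi1*, *Eno1* and *Eno3*.

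**Figure D5:**
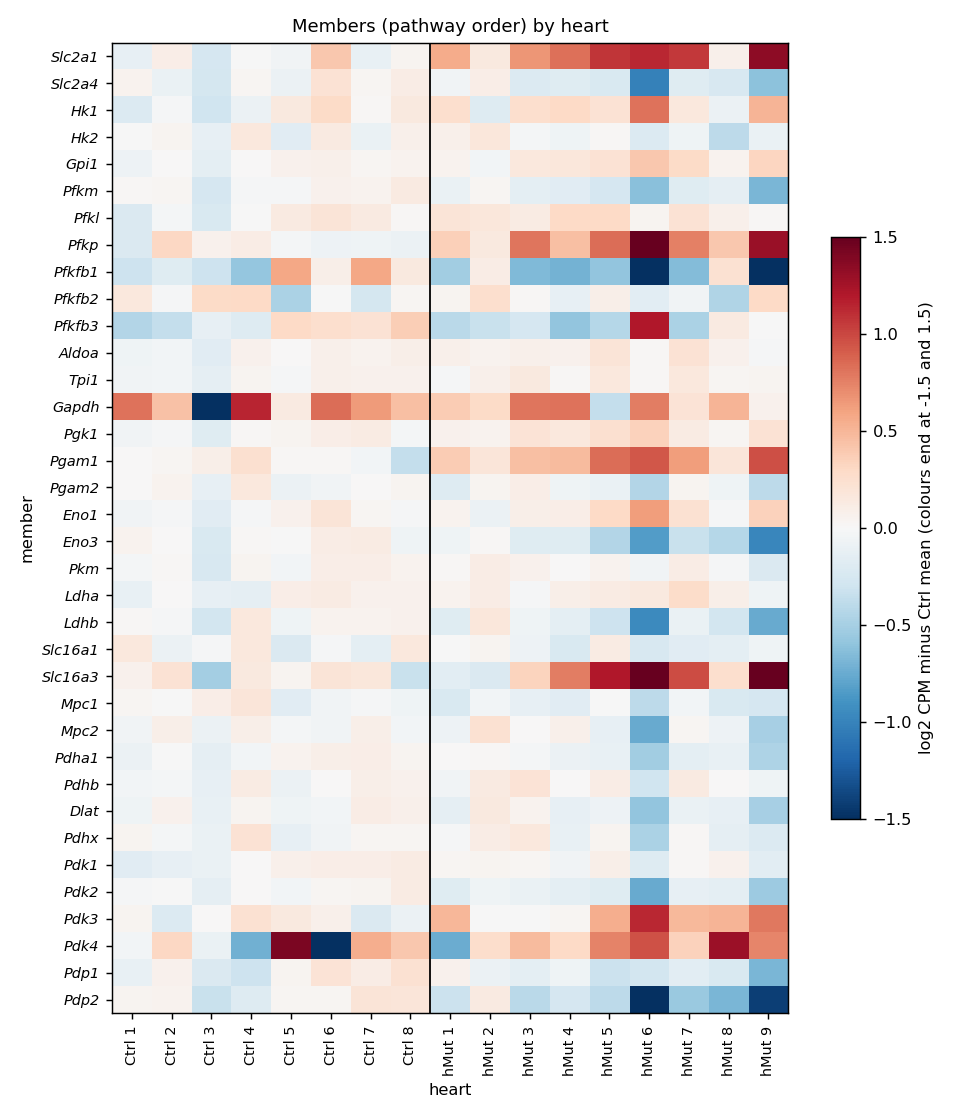
Log2 CPM minus the Ctrl mean for the 36 measured genes (vertical, pathway order) in 8 Ctrl and 9 hMut hearts (horizontal), with red for higher and blue for lower and colours ending at -1.5 and 1.5. hMut replicates 6 and 9 show the strongest colours, hMut replicate 2 is close to the Ctrl hearts, and the dark blue *Gapdh* cell is Ctrl replicate 3.

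Marker lists of other cell types were summed in the same libraries. The 12 macrophage and monocyte markers had a median log2 fold change of 0.62, with 12 of 12 positive, 0 called and 8 at an unadjusted p under 0.05 (edgeR), and their sum exceeded every Ctrl heart in 4 of 9 hMut hearts (356 to 1475 CPM against 284 to 426 CPM). In hMut replicates 1, 2, 3, 4 and 8 the macrophage sum was within the Ctrl range, at 356 to 396 CPM. Other sums exceeded every Ctrl heart in replicates 3, 4 and 8: 2228, 2286 and 2380 CPM for fibroblast markers, and 1167, 1155 and 1217 CPM for smooth muscle and pericyte markers. In replicate 1 the fibroblast sum did so (2315 CPM) and the smooth muscle and pericyte sum did not (1039 CPM). In replicate 2 neither did (1933 and 994 CPM). Of 10 endothelial markers 2 were called higher, *Kdr* and *Cldn5*, and the sums were 981 to 1217 CPM in Ctrl and 1043 to 1414 CPM in hMut hearts. Of 10 fibroblast markers 0 were called by edgeR and 7 were higher at an unadjusted p under 0.05, with sums of 1839 to 2223 and 1933 to 2858 CPM. Of 8 smooth muscle and pericyte markers 1 was called higher, *Pdgfrb*. Sums exceeded every Ctrl heart in 4 of 9 hMut hearts for endothelial, 7 for fibroblast and 5 for smooth muscle and pericyte markers. The 11 lymphocyte markers (0 called by edgeR, 5 higher at an unadjusted p under 0.05, sums of 3.38 to 52.4 and 6.17 to 89.8 CPM) had a median log2 fold change of 1.59, with 7 positive and 4 negative. Their sum had a median of 8.02 CPM in Ctrl and 8.36 CPM in hMut hearts, and only hMut replicate 6 exceeded every Ctrl heart. The 5 red blood cell markers (0 called, 0 at an unadjusted p under 0.05) had a median log2 fold change of -0.07. Adipocyte markers (6, none past the filter) summed to at most 1.14 and 2.17 CPM. Of 4 atrial markers 2 were tested and 1 was called higher. *Bmp10* rose (log2 fold change 5.58), and the other marker tested had a log2 fold change of 0.14. *Myl7* and *Sln* held at most 19 counts in any library. Since *Slc2a1*, *Pfkp*, *Pgam1* and *Eno1* are expressed in many non-muscle cells, the part of cell composition in their higher levels was not tested.

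Genes that branch from the pathway or regulate it were counted from lists written by function. Of 91 such genes tested, 8 were higher and 2 lower in hMut hearts, beside 3.48% and 1.14% of all genes. Glycogen genes gave 3 of these calls out of 17, all higher, with a median log2 fold change of -0.11 for the list against 0.00 for all genes. *Gyg*, which encodes the primer protein glycogenin, was between 166 and 186 CPM in Ctrl and between 177 and 332 CPM in hMut hearts. Its log2 fold change was 0.50 (adjusted p = 0.00528, edgeR), and 8 of 9 hMut hearts lay above every Ctrl heart. *Gbe1*, the glycogen branching enzyme, had a log2 fold change of 0.30 (adjusted p = 0.00895, edgeR), and *Pgm2*, a phosphoglucomutase family member, of 0.33 (adjusted p = 0.0179, edgeR), each with 8 of 9 hMut hearts above every Ctrl heart. *Pgm2* lost its call without hMut replicates 6 and 9 (0.27, adjusted p = 0.0504, edgeR), and both lost it with the replicate block (adjusted p = 0.0778 for *Gbe1* and 0.117 for *Pgm2*, edgeR).

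Of 8 pentose phosphate genes 1 was higher, *Pgd* (6-phosphogluconate dehydrogenase), with 7 of 9 hMut hearts above every Ctrl heart and a log2 fold change of 0.22 (adjusted p = 0.0431, edgeR). The 8 log2 fold changes of this list were all positive, with a median of 0.11. Of 9 genes for pyruvate carboxylation and gluconeogenesis 1 was higher, *Pck2*, which encodes the mitochondrial form of phosphoenolpyruvate carboxykinase. *Pck2* was between 10.2 and 12.6 CPM in Ctrl and between 11.3 and 28.02 CPM in hMut hearts (log2 fold change 0.82, SE 0.13, adjusted p = 0.00165, edgeR). None of 6 hexosamine genes and none of 10 genes of the NADH shuttles passed the edgeR test. At an unadjusted p under 0.05 these were 0 and 3 genes, and the shuttle list had a median of -0.14 with 9 of 10 log2 fold changes negative. Under DESeq2, 9 of the 91 genes were higher and 9 lower, beside 6.78% and 3.43% of all genes.

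Among 24 regulators of glucose use, 3 were higher and 1 lower, beside 3.48% and 1.14% of all genes. *Trib3*, a stress-induced pseudokinase that restrains AKT, was between 2.64 and 4.06 CPM in Ctrl and between 8.36 and 45.8 CPM in hMut hearts. All 9 hMut hearts lay above every Ctrl heart, as they did for 88 of all 16195 genes. The log2 fold change of *Trib3* was 2.87 (SE 0.30, adjusted p = 1.1e-05, edgeR). *Myc*, a transcription factor that activates many glycolytic genes, was between 1.73 and 4.88 CPM in Ctrl and between 3.49 and 16.8 CPM in hMut hearts (log2 fold change 1.52, SE 0.27, adjusted p = 0.00359, edgeR). *Ppargc1a*, the coactivator of mitochondrial biogenesis, was the gene called lower, at 96.9 ± 6.56 CPM (SD, n = 8) in Ctrl and 79.3 ± 7.87 CPM (SD, n = 9) in hMut hearts, a log2 fold change of -0.29 (adjusted p = 0.00812, edgeR), with 8 of 9 hMut hearts below every Ctrl heart. *Ppargc1a* lost its call with the cardiomyocyte scaling (-0.03, adjusted p = 0.763, edgeR) and with the replicate block (adjusted p = 0.0535, edgeR), and *Myc* with the block (adjusted p = 0.0637, edgeR). *Ppard*, a lipid-sensing nuclear receptor, had a log2 fold change of 0.16 (adjusted p = 0.0444, edgeR). Of 17 further glucose and lactate isozymes and transporters 1 was lower, *Slc2a8*, an intracellular hexose transporter, with a log2 fold change of -0.21 (adjusted p = 0.0443, edgeR). Of 29 alternatives to the processing, *Pgd* lost its call in 19, *Slc2a8* in 19 and *Ppard* in 17, and *Pgd* and *Slc2a8* lost it also without hMut replicates 6 and 9. *Gyg*, *Pck2* and *Trib3* kept their call in all 29.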

How the data were processed

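Poly(A) RNA from 17 mouse hearts (8 Ctrl, 9 hMut, 1 library per mouse) was sequenced by the authors on a NovaSeq X Plus, filtered with fastp, aligned to GRCm39 with HISAT2 2.2.1 and counted with featureCounts 2.0.6. The table as deposited holds whole-number counts for each gene without normalization. Strand use and the treatment of reads with several placements in counting are not given in the sources used here. Groups came from the labels.

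Differences were tested by quasi-likelihood F test in edgeR 4.0.16 (R 4.3.3) after TMM normalization and filterByExpr, with Benjamini-Hochberg adjustment over 16195 genes and a threshold of 0.05. Standard errors were derived from the F statistic. Ratios between isozymes or subunits used log2 CPM with a prior count of 2. Named are all members and, of each other list, up to 4 genes past the threshold with the smallest adjusted p. Members, pairs and lists were chosen with earlier results of these data known. Copies were searched in GRCm39 as exact 100-base windows of each gene's Ensembl canonical transcript, whose length was also used for shares per transcript. Both tests were tested on simulated data. Alternatives were DESeq2 1.42.0, limma 3.58.1 (voom), RLE and upper-quartile factors, other filters, no mtDNA-encoded genes, cardiomyocyte scaling, sex (read from counts), a replicate block, a prior count of 0.5 and libraries left out. The study's proteomic, metabolomic and mutation data were not analysed here. P-values measure the spread between these mice only.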

Additional observations from a re-analysis of the deposited data

Results flagged for a closer look

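Within each group, the highest and lowest heart of every gene and every ratio was tested by Dixon's criterion on the log2 scale, in 106 groups of 8 or 9 hearts, of which chance alone marks about 5%. The criterion was met 10 times. The largest was *Gapdh* in Ctrl replicate 3, at a log2 CPM of 3.002 (251 counts) against 7.59 in the next Ctrl heart. The same library was lowest for *Pfkm* (9.92, next 10.1) and *Pkm* (10.1, next 10.3), and Ctrl replicate 8 was lowest for *Pgam1* (5.25, next 5.57) and for the *Pgam1*/*Pgam2* log2 ratio (-3.53, next -3.16). Ctrl replicate 4 was highest for *Pdhx* (7.58, next 7.40). Among hMut hearts, replicate 6 was highest for *Pfkfb3* (4.87, next 3.80). Replicate 1 was lowest for *Pdk4* (7.78, next 8.79) and therefore highest for the log2 ratios *Pdk1*/*Pdk4* (0.31, next -0.69) and *Pdk3*/*Pdk4* (-6.38, next -7.44). Of the 3 genes called higher, only *Pgam1* had such a heart, and *Pgam1* remained past the threshold without Ctrl replicate 8.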

How the results depend on the processing

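*Slc2a1* and *Pgam1* kept their call under each of 29 alternatives, with log2 fold changes of 0.67 to 1.14 and 0.46 to 0.89, and *Pfkp* under 28 (0.55 to 1.22), losing it with the replicate block (adjusted p = 0.0993). The labels' replicate numbers count different mice: deviations of same-numbered hearts correlated between -0.23 and 0.34, and 1 of 8 Ctrl hearts correlated best with its own number. The block gave 169 genes higher and 26 lower, 2 members higher, and 3 and 0 other pathway genes. DESeq2 gave 1012 and 512 genes, 7 and 1 members and, among other pathway genes, 9 lower. limma-voom with quality weights gave 1175 and 906 genes, 5 and 6 members and 14 other genes lower. Cardiomyocyte scaling gave 7535 and 84 genes, 19 members higher, 45 and 1 other genes, and turned *Hk2* (0.21), *Pgam2* (0.15), *Pdk1* (0.25), *Pdhx* (0.20) and *Slc2a8* (0.054) to positive log2 fold changes, the first 4 past the threshold. Without a filter on low counts 68 genes and 1 other pathway gene were lower, and with sex as covariate 1 other gene. Without hMut replicates 6 and 9, 316 genes were higher and 115 lower. Without Ctrl replicates 2 and 3, 306 were higher, 67 lower and 1 other gene lower. Leaving out single libraries gave 326 to 1128 genes higher and 69 to 664 lower, 3 to 7 members higher and 0 to 3 lower, and 1 to 12 other pathway genes lower. The highest counts of each came without hMut replicate 2, when *Gpi1*, *Pdk3*, *Pgk1* and *Slc16a3* were also called higher and *Eno3*, *Pdp2* and *Pfkm* lower. Without hMut replicate 1, *Gpi1* and *Slc16a3* were also higher (5 members) and *Eno3* lower, and without hMut replicate 8 *Slc16a3* higher (4 members). The counts of other pathway genes were added after the data were seen. The cause of these shifts was not tested.

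Of the 9 ratios past the threshold, 7 kept their call under all 19 alternatives. With 1 of 17 libraries left out, *Slc16a3*/*Slc16a1* passed in 10 sets (lost without Ctrl replicate 1, 3, 4 or 8 or hMut replicate 6, 7 or 9; 0.66 to 0.98) and *Pdp2*/*Pdp1* in 12 (lost without Ctrl replicate 1, 2, 4, 7 or 8; -0.51 to -0.28). Conversely, *Hk1*/*Hk2* passed without Ctrl replicate 5 (0.36) or hMut replicate 2 (0.40), *Pdk2*/*Pdk4* without Ctrl replicate 5 (-0.94) or hMut replicate 1 (-0.90), and *Pfkfb1*/*Pfkfb2* without hMut replicate 8 (-0.98). For *Gapdh*, *Pgk1*, *Pgam1*, *Mpc1* and *Eno1*, exact copies limit what the counts can show, and *Slc16a3* and *Pdk3*, at under 10 CPM in every heart, rest on few counts.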

Other observations

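Among genes above a set level, a fall as deep as that of *Gapdh* in Ctrl replicate 3 was seen for *Gapdh* alone. Of 2997 genes with a Ctrl mean above 50 CPM, *Gapdh* was the only gene in any Ctrl library that fell below 10% of the lowest of the other Ctrl libraries, a limit chosen after the value was seen. *Gapdh-ps16*, an annotated copy on chromosome 8, had 17 to 43 counts in Ctrl libraries, with the fewest in Ctrl replicate 3. The neighbours of *Gapdh* in the pathway were at 630 CPM (*Tpi1*) and 363 CPM (*Pgk1*) in Ctrl replicate 3, the lowest Ctrl values but close to the other hearts.

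Several members had a narrow error around a small difference. *Pkm*, *Pdk1*, *Pdhb*, *Tpi1*, *Aldoa* and *Ldha* had log2 fold changes between -0.02 and 0.09 (edgeR with TMM), each with a standard error of 0.04 to 0.06. With libraries scaled on cardiomyocyte markers, *Pkm* was at 0.28 and *Aldoa* at 0.35.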
